A study of Mus musculus with 2 samples.

Results

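Iron and heme handling was followed through 9 genes of injured mouse skeletal muscle: Cd163, Slc48a1, Hmox1, Blvrb, Ftl1, Fth1, Slc11a1, Slc40a1 and Tfrc. They were chosen by symbol from the 55487 genes counted, and all 9 were found. The levels come from single-cell RNA sequencing of injured tibialis anterior muscle, with 1 library from Setdb1-cKO mice (KO) and 1 from wild-type mice (WT), both aged 8-12 weeks. Setdb1 encodes a histone H3 lysine methyltransferase, and the series concerns its role in muscle stem cells during regeneration. The cells had been sorted on Hoechst and propidium iodide, a stain of dead cells. The sources used here state neither how many animals were used nor the kind of injury, its day or the promoter that drives Cre.

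Macrophages of injured muscle take up red cells and dying fibres and recycle their iron. Cd163 binds haptoglobin-hemoglobin at the surface, and Slc48a1 (HRG1) passes heme out of the phagolysosome. Hmox1 splits heme into iron, carbon monoxide and biliverdin, and Blvrb is a biliverdin reductase. Ftl1 and Fth1 are the light and heavy chains of ferritin, which stores iron. Slc11a1 (NRAMP1) carries divalent metal across the phagosome membrane, Slc40a1 (ferroportin) exports iron from the cell, and Tfrc (transferrin receptor) imports it. Iron regulatory proteins bind iron-responsive elements (IREs) in some of these mRNAs when iron is scarce, which blocks translation from a 5′ UTR and protects the mRNA from decay in a 3′ UTR.

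The letters of an IRE were looked for in the GENCODE M21 transcripts of GRCm38, as a C, 5 bases, the loop CAGTG, 1 base and 5 bases able to pair with the first 5 (G with T allowed), on the transcript strand. Matches stood in 4 of the 9 genes, shown because they separate the members whose mRNA holds these letters from those that were not matched. Among all genes, 31 of 20916 with a 5′ UTR (0.148%) and 129 of 21707 with a 3′ UTR (0.594%) held a match. The capitals mark the loop, each sequence reads 5′ to 3′ on the transcript, and a match is a description of the letters only. The 5′ UTR matches lay at chr19:9982732-9982761 (plus strand) for Fth1, chr7:45459778-45459807 (minus strand) for Ftl1 and chr1:45925464-45925493 (minus strand) for Slc40a1. The 4 matches of Tfrc lay in its 3′ UTR on the plus strand, at chr16:32631219-32631248, chr16:32631598-32631627, chr16:32631663-32631692 and chr16:32631710-32631739, given below as sites a to d.
Fth1, 5′ UTR: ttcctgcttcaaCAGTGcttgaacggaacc
Ftl1, 5′ UTR: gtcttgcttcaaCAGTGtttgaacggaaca
Slc40a1, 5′ UTR: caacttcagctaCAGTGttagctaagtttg
Tfrc, 3′ UTR, site a: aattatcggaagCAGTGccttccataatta
Tfrc, 3′ UTR, site b: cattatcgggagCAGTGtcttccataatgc
Tfrc, 3′ UTR, site c: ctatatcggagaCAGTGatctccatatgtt
Tfrc, 3′ UTR, site d: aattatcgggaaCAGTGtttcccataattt
The remaining members lie on chromosomes 8 (Hmox1, 75093621 to 75100589), 7 (Blvrb, 27447978 to 27466144), 15 (Slc48a1, 97778520 to 97792692), 1 (Slc11a1, 74375195 to 74386062) and 6 (Cd163, 124304656 to 124330527), and no match was found in their annotated UTRs.

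The libraries held 138667420 UMIs (unique molecular identifiers) in KO and 121703522 in WT. After filtering, 6411 KO and 6345 WT cells were kept, with medians of 12050 and 12092 UMIs per cell, and 6 cell barcodes occurred in both. Setdb1 itself stood at 8.50 CPM (the UMIs of a gene summed over a cell class and scaled to the same total in every class) in KO myogenic cells and 18.1 CPM in WT myogenic cells, a ratio of 0.470, and at 20.8 and 16.5 CPM in KO and WT mononuclear phagocytes. The sources do not say which exons are deleted, so a 3′ count of it checks the labels only in part. Mononuclear phagocytes were the largest class, with 3606 of the KO cells (56.2%) and 3299 of the WT cells (52.0%); all 15 of their markers were present in both libraries, with summed levels of 81223 CPM in KO and 77855 CPM in WT. With 1 library per group there is no replicate check and no test. Intervals are 95% intervals for counting error only, "past 1.5-fold" is a description of size, and a gene was compared where the libraries together held 20 or more UMIs of it.

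Classes were ranked where each library held 50 or more cells. T or NK lymphocytes, Schwann or glial cells, muscle fibres and erythroid cells fell short of that and were not ranked. By summed CPM the phagocytes were the class with the highest level of 8 of the 9 genes in both libraries, and Tfrc was the exception. By the share of cells with a UMI after thinning to 1000 UMIs, mean of both libraries, they were highest for 7 of the 9. Ftl1 stood at 12250 CPM in KO and 13145 CPM in WT phagocytes, 3.26 and 3.32 times the class next in order, the dendritic cells. Fth1 stood at 18660 and 19737 CPM in KO and WT phagocytes, against 11549 and 11938 CPM in KO and WT dendritic cells. The largest cluster of the class called dendritic, led by Cd209a and Gm9733 (253 KO and 469 WT cells), had phagocyte markers summing to 15315 CPM in KO and 15613 CPM in WT, beside dendritic markers summing to 5035 and 5806 CPM. At a finer clustering (Leiden resolution 1.5), 140 KO and 350 WT cells formed a cluster led by Gm9733, Hp and Ly6c2 that was named phagocyte. Fth1 was 15347 CPM in KO and 15138 CPM in WT in that largest cluster, against 4457 and 4057 CPM in the dendritic cluster led by Xcr1. The part of phagocytes in the dendritic levels was not tested. Blvrb was at 365 CPM in KO and 378 CPM in WT phagocytes, 3.29 and 3.33 times the class next in order. Hmox1 was at 637 and 521 CPM in KO and WT phagocytes, only 1.87 and 1.47 times the dendritic level. The gap between classes was widest for Slc11a1, at 139 and 132 CPM in KO and WT phagocytes, 60.1 and 49.4 times the lowest class. Cd163 had 19.5 and 13.3 CPM in KO and WT phagocytes, 3.39 and 1.84 times the dendritic level.

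**Figure D1:**
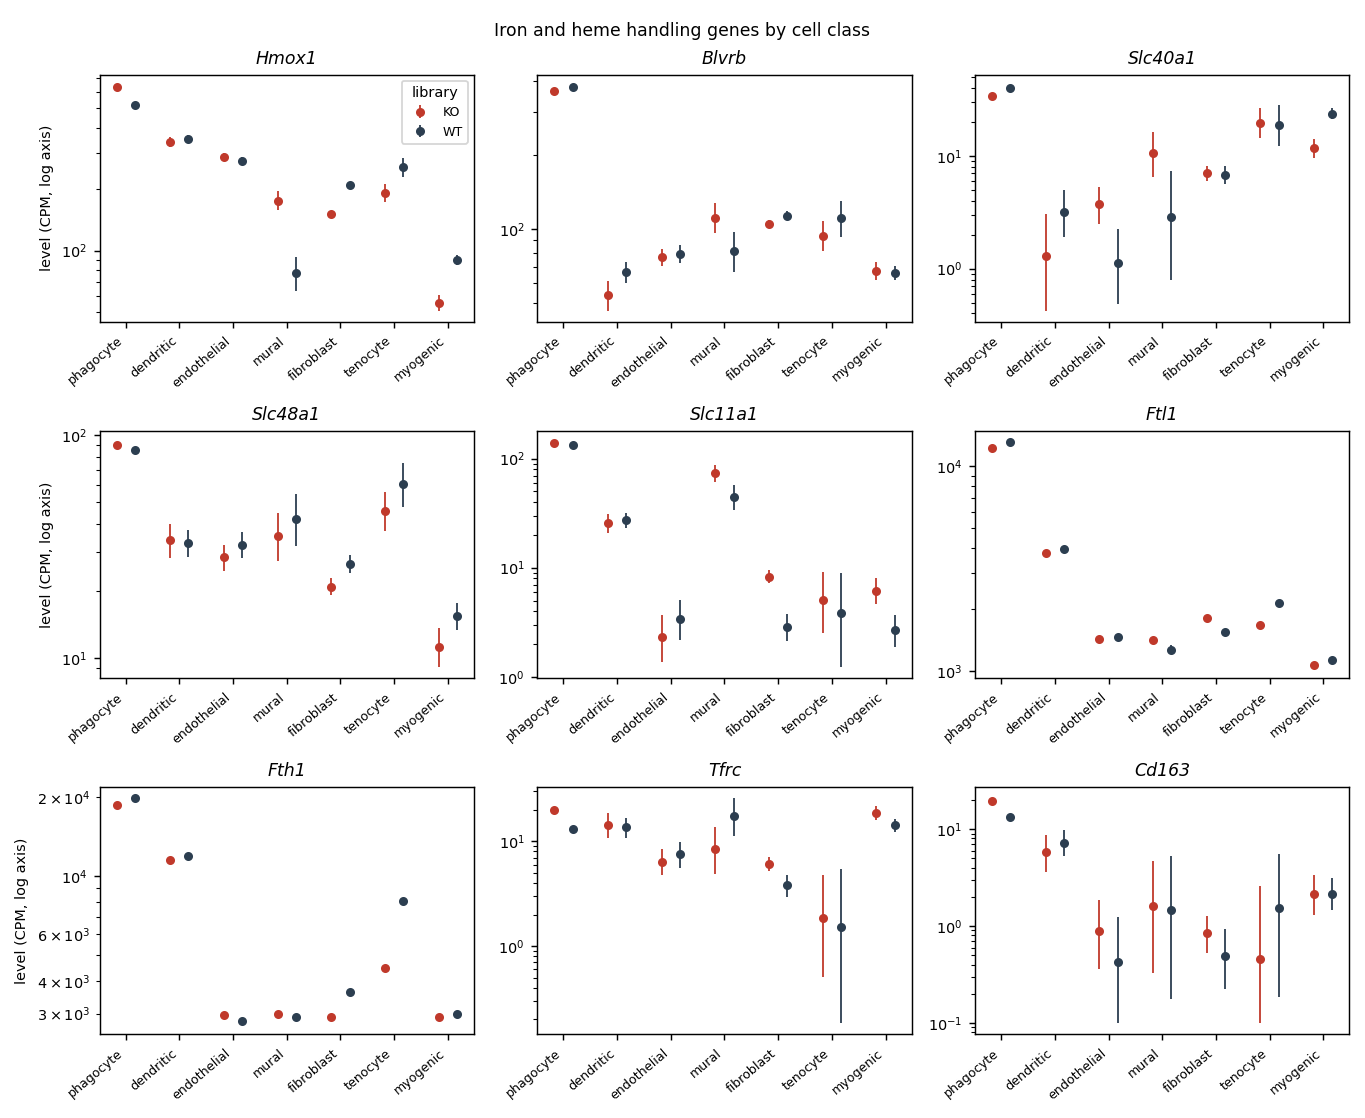
Level of each of the 9 genes (CPM of summed UMIs, log axis) in 7 cell classes, with the KO library left of the WT library; points are 1 library each and bars are exact Poisson 95% intervals. The phagocytes lead in 8 of the 9 panels, while in the Tfrc panel several classes lie within each other's intervals.

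Tfrc had no leading class among those ranked. In KO it was 19.8 CPM in phagocytes, 18.6 CPM in myogenic cells and 14.4 CPM in dendritic cells, and neighbours in that order overlapped in their intervals. In WT the order was mural cells (17.4 CPM), myogenic cells (14.2 CPM), dendritic cells (13.6 CPM) and phagocytes (12.997 CPM), also with overlapping intervals. Tenocytes, tendon fibroblasts, were lowest in both libraries, at 1.85 CPM in KO and 1.52 CPM in WT. Tfrc was also the member least alike the others across 13 profiles (6 classes and 7 phagocyte subsets, log2(CPM + 5), mean of both libraries), with Pearson's r of 0.34 with Fth1 and 0.35 with Slc48a1 and 0.72 with Cd163, its closest, against 0.97 between Ftl1 and Fth1. Profiles of the same library share cells of one suspension, so these r values are descriptions.

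Within each library the highest of the 7 phagocyte subsets had at least 1.98 times the level of the lowest, for each of the 9 genes. Subsets were clustered without the 9 genes and without any gene of the wider iron and heme lists, and are called by their leading genes: an inflammatory subset (Cxcl3, Cxcl2; 669 KO and 340 WT cells), Mrc1 and F13a1 (618 and 465), Gpnmb (770 and 792), Mmp12 and F10 (226 and 365), interferon-high (Ifit2, Ifit3; 174 and 412), Cx3cr1 and MHC class II (1096 and 856) and cycling (53 and 69). Hmox1 ran from 1236 CPM in KO and 1009 CPM in WT inflammatory cells to 302 CPM in KO Cx3cr1 and MHC class II cells and 284 CPM in WT Mmp12 and F10 cells. In WT the inflammatory level did not stand apart from that of Mrc1 and F13a1 cells (973 CPM), whereas in KO it did (864 CPM in Mrc1 and F13a1 cells). Blvrb was highest in Mrc1 and F13a1 cells, at 497 CPM in KO and 603 CPM in WT. The leading subsets of Hmox1 and Blvrb thus differed in KO, and in WT the summed level of Hmox1 had no single leading subset. At least 10 Hmox1 UMIs were seen in 42.9% of WT inflammatory cells and 16.3% of WT Mrc1 and F13a1 cells. At least 100 were seen in 1.18% and 3.23% of them.

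Cd163, of heme uptake, was concentrated in Mrc1 and F13a1 cells, with 75.2 CPM in KO and 73.7 CPM in WT, 2.25 and 6.75 times the subset next in order. In Gpnmb cells it stood at 2.98 CPM in KO and 1.47 CPM in WT. A Cd163 UMI was seen in 21.5% of KO and 22.4% of WT Mrc1 and F13a1 cells, against 0.301% of KO and 0.460% of WT endothelial cells, a class not known for it, with median depths of 11617 and 10509 UMIs against 9882 and 9003 UMIs. Slc48a1, the lysosomal heme exit, was highest in Gpnmb cells in KO, with 124 CPM against 105 CPM in Mrc1 and F13a1 cells. In WT these subsets, at 111 and 105 CPM, overlapped in their intervals. Its lowest levels were 50.5 CPM in KO interferon-high cells and 54.5 CPM in WT Cx3cr1 and MHC class II cells.

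The ferritin chains and the metal transporter Slc11a1 favoured the Gpnmb, Mmp12 and F10 and inflammatory subsets in both libraries. Ftl1 stood at 16224 CPM in KO and 17299 CPM in WT Gpnmb cells (in WT level with Mmp12 and F10 cells, at 17342 CPM), against 8552 CPM in KO and 8744 CPM in WT Cx3cr1 and MHC class II cells. Fth1 was highest in inflammatory cells in KO (24840 CPM) and in Mmp12 and F10 cells in WT (27834 CPM). Slc11a1 was at 165 CPM in KO and 173 CPM in WT Gpnmb cells, and its neighbours in order, Mmp12 and F10 cells (165 and 164 CPM) and inflammatory cells (161 and 158 CPM), overlapped with it. Mrc1 and F13a1 cells, the leading subset of Cd163 and Blvrb, were low in Slc11a1, with 91.5 CPM in KO and 75.8 CPM in WT. Slc40a1, the iron exporter, was highest in Gpnmb (55.0 CPM) and inflammatory cells (54.9 CPM) in KO and in Mrc1 and F13a1 (65.7 CPM) and Gpnmb cells (64.4 CPM) in WT.

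**Figure D2:**
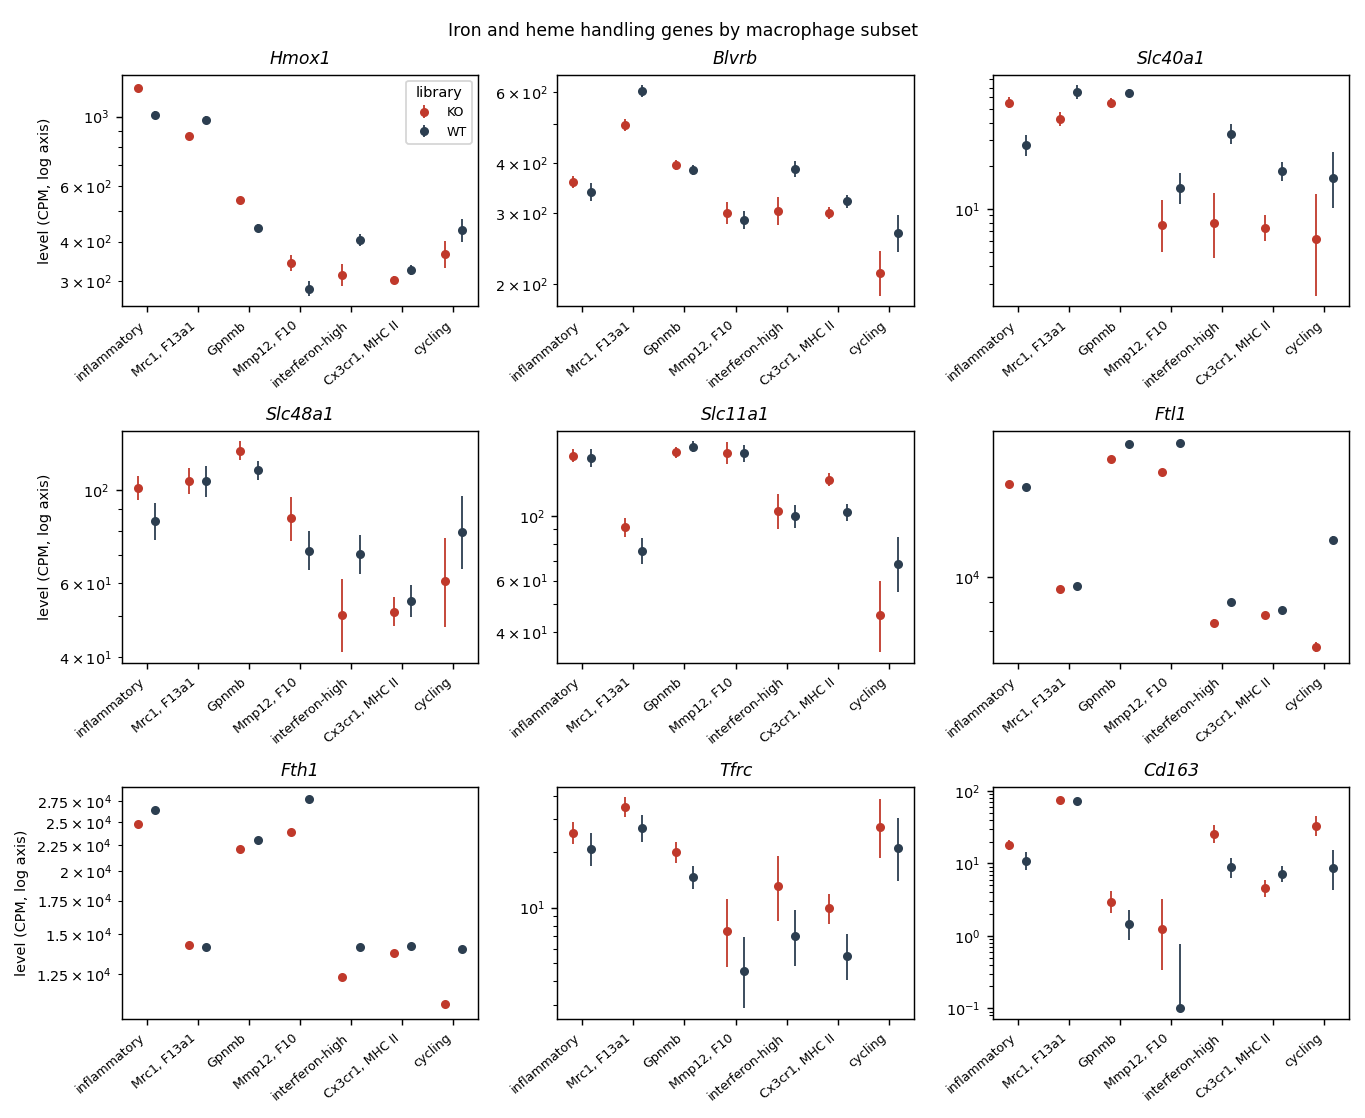
Level of each of the 9 genes (CPM of summed UMIs, log axis) in 7 phagocyte subsets, with the KO library left of the WT library; bars are exact Poisson 95% intervals. Hmox1 peaks in the inflammatory subset in KO, while in WT its interval there overlaps that of Mrc1 and F13a1 cells. Cd163 and Blvrb peak in the Mrc1 and F13a1 subset. Cd163 had no UMI in WT Mmp12 and F10 cells and is drawn there at 0.1 CPM.

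Over all phagocytes, KO and WT were close for most of the members. The KO/WT ratio was 1.22 for Hmox1 (1.20 to 1.24), 0.966 for Blvrb (0.946 to 0.987), 1.06 for Slc48a1 (1.01 to 1.11), 1.05 for Slc11a1 (1.01 to 1.09), 0.932 for Ftl1 (0.928 to 0.935) and 0.945 for Fth1 (0.943 to 0.948). Tfrc alone was past 1.5-fold, at 19.8 CPM in KO and 12.997 CPM in WT, a ratio of 1.52 (1.37 to 1.69). This 1 of 9 members stood near the share past 1.5-fold among all 15613 genes compared in phagocytes, 12.8% (8.04% higher and 4.78% lower in KO). Cd163 lay just under, with a ratio of 1.47 (1.33 to 1.64), and Slc40a1 was at 34.2 CPM in KO and 40.1 CPM in WT, a ratio of 0.853 (0.797 to 0.914).

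The subsets made up different shares of the phagocytes in the 2 libraries, and this moved some of these ratios. Inflammatory cells were 18.6% of KO and 10.3% of WT phagocytes, while interferon-high cells were 4.83% of KO and 12.5% of WT phagocytes. With the subsets of both libraries weighted as in WT, the Hmox1 ratio was 1.06, the Cd163 ratio 1.27, the Tfrc ratio 1.40 and the Slc40a1 ratio 0.779. Applying the WT levels to the makeup of each library gave 1.14 for Hmox1, 1.27 for Cd163, 1.12 for Tfrc and 0.990 for Slc40a1. Hmox1 itself was above 1 in 3 of 7 subsets, below 1 in the other 4, and past 1.5-fold in none.

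Tfrc was higher in KO in all 7 subsets, with ratios of 1.22 to 1.86. In Mrc1 and F13a1 cells, its highest subset, it was 34.8 CPM in KO and 26.9 CPM in WT (1.29, 1.05 to 1.602), and in Gpnmb cells it was 19.9 and 14.6 CPM (1.36, 1.12 to 1.66). In Cx3cr1 and MHC class II cells it was 9.90 CPM in KO and 5.46 CPM in WT (1.81, 1.29 to 2.58), in interferon-high cells 13.01 and 6.99 CPM (1.86, 1.07 to 3.19), and in Mmp12 and F10 cells 7.46 and 4.57 CPM (1.63, 0.876 to 3.05). These 3 subsets, where Tfrc was lowest, were the ones past 1.5-fold. In cycling cells it was 27.2 CPM in KO and 21.04 CPM in WT (1.29, 0.747 to 2.25; 31 and 27 UMIs), and with the mean over cells in place of summed UMIs the ratio there was 0.958. In inflammatory cells it was 25.3 and 20.7 CPM in KO and WT (1.22, 0.959 to 1.57), and a single WT cell held 26 of the 97 WT UMIs; without the top cell of each library the ratio was 1.599. A Tfrc UMI was seen in 15.003% of KO and 9.97% of WT phagocytes, and after thinning every cell to 2000 UMIs in 3.72% and 1.61%, so more KO cells had a UMI while the mean per positive cell was 1.702 UMIs in KO and 1.693 UMIs in WT. In tenocytes, the class lowest in Tfrc, 3.74% of KO and 2.56% of WT cells had a UMI at median depths of 18499 and 15346 UMIs, against 11932 and 11772 UMIs in phagocytes.

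Slc40a1 was the member whose KO/WT ratio varied most between the larger subsets. It was higher in KO inflammatory cells, with 54.9 CPM in KO and 27.8 CPM in WT (490 and 130 UMIs), a ratio of 1.98 (1.63 to 2.42). In the other 6 subsets it was lower in KO: 55.0 and 64.4 CPM in KO and WT Gpnmb cells (0.854, 0.769 to 0.948), 42.7 and 65.7 CPM in Mrc1 and F13a1 cells (0.6496, 0.556 to 0.759) and 7.40 and 18.3 CPM in Cx3cr1 and MHC class II cells (0.404, 0.309 to 0.525). The smaller subsets had 7.77 CPM in KO and 13.9 CPM in WT Mmp12 and F10 cells (0.558), 8.00 and 33.5 CPM in interferon-high cells (0.239) and 6.14 and 16.4 CPM in cycling cells (0.375). In interferon-high cells 1 WT cell held 80 of the 163 WT UMIs, and without the top cell of each library the ratio was 0.353. Clustered anew at 2000 or more UMIs, the subset of that name held 350 KO and 614 WT cells, with a ratio of 0.673. With Gpnmb and Mmp12 and F10 cells pooled the ratio was 0.884, but 1.05 at a coarser clustering (Leiden resolution 0.5) and 1.01 with the mean over cells. Summing all subsets but the inflammatory one gave a phagocyte ratio of 0.70.

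**Figure D3:**
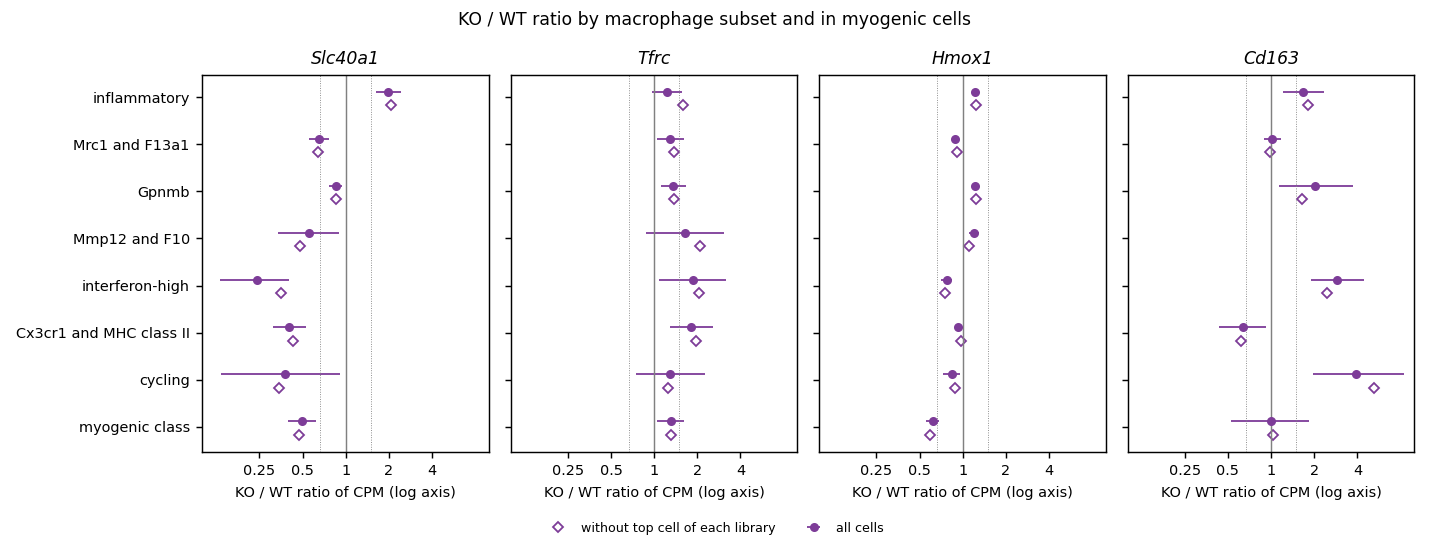
KO/WT ratio of CPM (log axis) of Slc40a1, Tfrc, Hmox1 and Cd163 in 7 phagocyte subsets and in myogenic cells; filled points are all cells with 95% intervals for counting error, open points leave out the cell with the most UMIs of the gene in each library, and dotted lines mark 1.5-fold in each direction. Slc40a1 lies above 1 in the inflammatory subset and below 1 in the other rows, and Tfrc lies above 1 in every row.

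The difference in the inflammatory subset came with more Slc40a1 UMIs per positive cell rather than with many more positive cells. A UMI was seen in 81 of 669 KO cells (12.1%) and 36 of 340 WT cells (10.6%), and the mean per positive cell was 6.05 UMIs in KO and 3.61 UMIs in WT. At least 10 UMIs were seen in 19 KO cells (2.84%) and 4 WT cells (1.18%), and 20 or more in 4 KO cells and no WT cell. The sum therefore rested on few cells: the 5 highest cells held 30.4% of the KO UMIs and 52.3% of the WT UMIs. Without the top cell of each library the ratio was 2.08 (1.68 to 2.58), and without the 5 highest 2.86. In Mrc1 and F13a1 cells the lower KO level came with fewer positive cells, with 11.8% of KO and 18.7% of WT cells positive and means of 4.38 UMIs in KO and 3.87 UMIs in WT. Endothelial cells gave a Slc40a1 UMI in 1.95% of KO and 1.23% of WT cells at median depths of 9882 and 9003 UMIs, against 12410 and 12627 UMIs in inflammatory cells. Erythroid markers summed to 31.5 CPM in KO and 1676 CPM in WT inflammatory cells, where 1 WT cell held 3779 of the 4156 Hbb-bs UMIs, and neutrophil markers to 75.0 and 55.8 CPM with 4 of 11 at 0 in each; their part in the result was not tested.

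**Figure D4:**
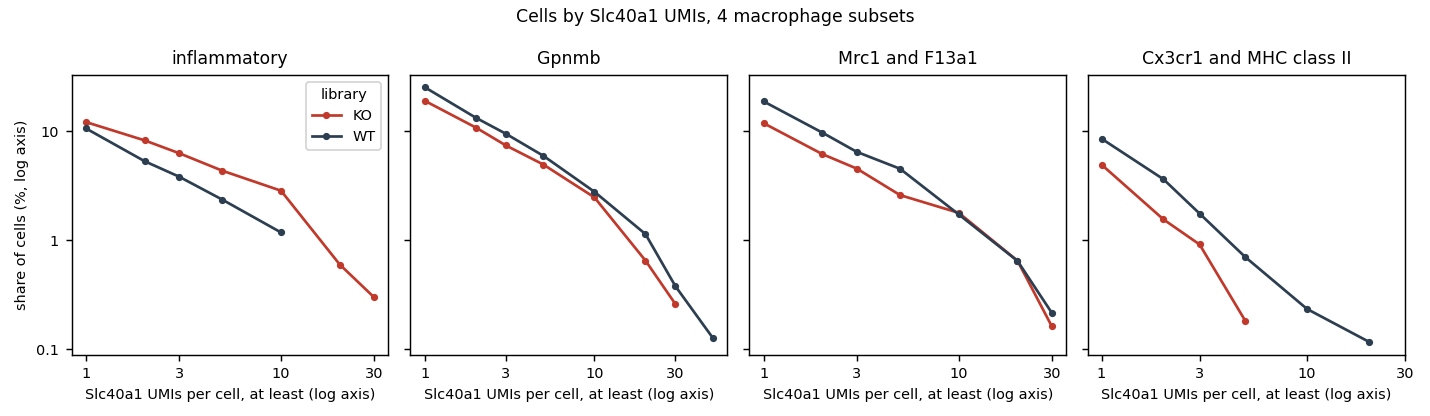
Share of cells (%, log axis) with at least the given number of Slc40a1 UMIs (log axis) in 4 phagocyte subsets, KO and WT. In the inflammatory subset the KO line lies above the WT line at every count, while in the Cx3cr1 and MHC class II subset it lies below.

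Cd163 differed little where it was high and more where it was low. In Mrc1 and F13a1 cells, with 564 KO and 378 WT UMIs, the ratio was 1.02 (0.894 to 1.17). It was past 1.5-fold higher in KO in inflammatory cells (18.2 and 10.9 CPM, 1.67), interferon-high cells (25.5 and 8.84 CPM, 2.89), Gpnmb cells (2.98 and 1.47 CPM, 2.03) and cycling cells (33.3 and 8.57 CPM, 3.89), and lower in Cx3cr1 and MHC class II cells (4.58 and 7.21 CPM, 0.635). Few cells carried these sums: 15 KO and 25 WT interferon-high cells and 5 KO and 6 WT cycling cells had a Cd163 UMI. Cells of 2000 or more UMIs were clustered anew, so their subsets of the same names are not the same cells. There the Cd163 ratio was 0.374 in interferon-high cells (350 KO and 614 WT cells). It was 1.01 in Cx3cr1 and MHC class II cells (1214 and 837). In Gpnmb cells the ratio was 1.65 without the top cell of each library and 1.22 without the 5 highest. In Mmp12 and F10 cells there were 4 UMIs in KO and none in WT, so no ratio was made.

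The ferritin chains, Blvrb, Slc48a1 and Hmox1 stayed within 1.5-fold in 6 subsets, and Ftl1 left that range only in the cycling subset of 53 KO and 69 WT cells, with 7498 CPM in KO and 11637 CPM in WT (0.644, 0.627 to 0.662). Slc11a1 was also lower in KO cycling cells, at 45.6 against 68.6 CPM (0.666), and higher in KO Cx3cr1 and MHC class II cells, at 133 against 103 CPM (1.30, 1.19 to 1.41). The phagocyte markers summed to 38979 CPM in KO and 49373 CPM in WT cycling cells, and the median log2 ratio of all genes there was 0.11. Blvrb was lower in KO in its leading Mrc1 and F13a1 subset (0.824, 0.786 to 0.865). Over the 7 subsets, 16 of 62 comparisons of a member were past 1.5-fold, and 6 of them had an interval wholly beyond 1.5-fold. The share of all genes with such an interval was not computed, and these intervals leave out the spread between cells. Among all genes the share past 1.5-fold was 14.7% in inflammatory cells, 12.3% in Cx3cr1 and MHC class II cells, 12.2% in Gpnmb cells, 15.2% in Mrc1 and F13a1 cells, 14.9% in Mmp12 and F10 cells, 17.7% in interferon-high cells and 25.8% in cycling cells. All but 2 of the 16 were comparisons of Slc40a1, Tfrc or Cd163, the members with the fewest UMIs.

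Outside the phagocytes, myogenic cells had less Slc40a1 and Hmox1 in KO. Setdb1 was also lower in KO in these cells, and any link between it and these genes was not tested. Slc40a1 stood at 11.8 CPM in KO and 23.8 CPM in WT myogenic cells (0.495, 0.393 to 0.619), with a UMI in 74 of 376 KO cells (19.7%) and 211 of 684 WT cells (30.8%) at median depths of 21027 and 17366 UMIs. No cell held more than 6 UMIs, so the sum was spread over many cells. The ratio was alike in the Myog and Pax7 cluster (12.8 and 25.1 CPM, 0.511) and in the cycling myogenic cluster (9.38 and 17.8 CPM, 0.525). In the Myog and Pax7 cluster, muscle fibre markers summed to 3773 CPM in KO and 1482 CPM in WT, and myogenic markers to 4295 and 2901 CPM. In the cycling cluster the muscle fibre markers summed to 313 and 307 CPM. The part of this makeup in the myogenic ratios was not tested. Hmox1 was 55.7 CPM in KO and 90.0 CPM in WT myogenic cells (0.619, 0.556 to 0.688), with similar shares of positive cells (47.3% and 43.9%) and means of 2.76 UMIs in KO and 4.03 UMIs in WT per positive cell. Tfrc was 18.6 and 14.2 CPM in KO and WT (1.31, 1.05 to 1.62), and Ftl1 (0.951) and Fth1 (0.979) were close to 1. Slc11a1 was 6.12 CPM in KO and 2.68 CPM in WT (2.28), beside summed phagocyte marker levels of 1738 CPM in KO and 1162 CPM in WT with no marker at 0; their part in the result was not tested. These 3 of 9 members past 1.5-fold stood against 23.6% of all genes compared in myogenic cells, so the count as such was not far from the background.

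Mural cells, the pericytes and smooth muscle cells of vessels, were, of the 7 classes, the only one beside the phagocytes and dendritic cells in which Slc11a1 exceeded 10 CPM in both libraries. It stood at 73.4 CPM in KO and 44.1 CPM in WT mural cells (1.66, 1.22 to 2.28), against 2.31 CPM in KO and 3.40 CPM in WT endothelial cells. Free RNA at its upper bound would give mural cells 1.61 CPM in KO and 2.32 CPM in WT, and the phagocyte markers summed to 3053 CPM in KO and 3328 CPM in WT, beside endothelial sums of 2818 and 2114 CPM; their part in the Slc11a1 level was not tested. Hmox1 was 176 and 77.4 CPM in KO and WT mural cells (2.27), but 1 KO cell held 140 of the 331 KO UMIs and without the top cells the ratio was 1.42. In all, 4 of the 8 members compared in mural cells were past 1.5-fold, against 20.7% of all genes; the others were Slc40a1 (20 and 4 UMIs in KO and WT, 3.67) and Tfrc (16 and 24 UMIs, 0.490).

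In the other classes the calls were few or rested on few UMIs. Tenocytes had 4476 CPM of Fth1 in KO and 8009 CPM in WT (0.559, 0.544 to 0.575). Over 9 other settings the Fth1 ratio in tenocytes ran from 0.515 to 0.807, so it was not past 1.5-fold in all of them. Fth1 was the 1 of 6 members past 1.5-fold there, where 26.0% of all genes were and the median log2 ratio of all genes was 0.14. Endothelial cells had 29 Slc40a1 UMIs in KO, 13 of them in 1 cell, and 8 in WT (3.29, and 2.07 without the top cells), the 1 of 8 members past 1.5-fold, against 12.5% of all genes. Dendritic cells had 5 Slc40a1 UMIs in KO and 19 in WT (0.411), the 1 of 9, against 17.5%. In fibro-adipogenic and fibroblast cells, Slc11a1 (8.28 and 2.86 CPM in KO and WT, 2.90), Tfrc (6.09 and 3.80 CPM, 1.603) and Cd163 (22 and 9 UMIs, 1.71) were the 3 of 9 past 1.5-fold, against 22.3%. A cluster of that class led by Col1a1 and Rpgrip1 held 334 KO and 8 WT cells and had phagocyte marker sums of 26128 CPM in KO and 29768 CPM in WT, against 1158 and 1265 CPM in the largest cluster of the class. In that largest cluster, led by Clec3b and Sfrp1, the Slc11a1 ratio was 1.43 (3.11 and 2.17 CPM) and the Tfrc ratio 1.25 (4.51 and 3.60 CPM).

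Of the wider lists of iron and heme genes, none had a member past 1.5-fold lower in KO phagocytes. Heme breakdown and transport had 0 of 9 genes past 1.5-fold (median log2 ratio 0.08) and heme synthesis 0 of 10 (0.00), beside a median of 0.03 over all genes and 12.8% of them past 1.5-fold. Hmox2, the constitutive heme oxygenase, was 196 CPM in KO and 251 CPM in WT (0.781, 0.759 to 0.803) and was below 1 in all 7 subsets. Blvra, the other biliverdin reductase, was 100 and 94.2 CPM in KO and WT (1.06). Lrp1, a receptor for hemopexin-bound heme, was 250 and 189 CPM (1.32, 1.28 to 1.36), and Alas1, the entry enzyme of heme synthesis, 57.6 and 51.0 CPM (1.13).

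Iron transport and storage had 2 of 14 genes past 1.5-fold higher in KO (median log2 ratio 0.16), beside 8.04% of all genes tested. They were Slc11a2, the importer DMT1 (26.9 and 17.03 CPM, 1.58), and Steap4, a metalloreductase (56 and 30 UMIs, 1.72). Both are named because the count is small, after their values were seen. Among the abundant genes of that list, Hfe, which binds the transferrin receptor, had a ratio of 1.21, the iron chaperones Pcbp1 and Pcbp2 both 1.16, and Ncoa4, the cargo receptor that delivers ferritin to lysosomes, 1.12. Iron sensing and regulation had 2 of 15 past 1.5-fold higher (median 0.16), beside the same 8.04%, namely Neo1, with 77 UMIs in KO and 41 in WT, and Bmpr1a, with 22 and 13, both named after their values were seen. Bach1, the heme-sensing repressor of Hmox1, was 173 CPM in KO and 121 CPM in WT (1.43, 1.38 to 1.48), and Nfe2l2 (NRF2), an activator of Hmox1, was 343 and 262 CPM (1.31, 1.28 to 1.34). The transcription factors Hif1a (101 and 75.7 CPM, 1.34) and Maf (592 and 453 CPM, 1.31) had similar ratios. Repressor and activator of Hmox1 thus both had ratios above 1, and Bach1 was above 1 in each of the 7 subsets (1.21 to 1.51).

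Among NRF2 targets 4 of 12 were past 1.5-fold higher in KO, beside 8.04% of all genes, namely Txnrd1, Slc7a11, Nqo1 and Me1. The median log2 ratio of this list was 0.12 with 5 CPM added and 0.35 with 1 CPM added. Txnrd1, a thioredoxin reductase, was 139 CPM in KO and 87.9 CPM in WT (1.58, 1.52 to 1.65), and Slc7a11, a cystine importer, 51.1 and 32.8 CPM (1.56, 1.46 to 1.66). Nqo1 had 24 UMIs in KO and 9 in WT, and Me1 34 and 14, both named after their values were seen. Within inflammatory cells, where both were highest, Txnrd1 was 491 CPM in KO and 459 CPM in WT (1.07). Slc7a11 was 217 and 213 CPM there (1.02), and it was among the markers used to name that subset. The inflammatory subset held a larger share of KO than of WT phagocytes, and the part of this in the ratios was not tested. Past 1.5-fold higher in KO were 2 of 10 targets in Gpnmb cells and 1 of 10 in Mrc1 and F13a1 cells. In cycling cells 3 of 9 were higher and 2 lower, and in interferon-high cells 2 of 10 were lower. The other subsets had none in either direction. Among all genes 12.2% to 25.8% were past 1.5-fold either way, by subset. Gclm, of glutathione synthesis, had a ratio of 1.29 and Taldo1, a transaldolase, 0.877.

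**Figure D5:**
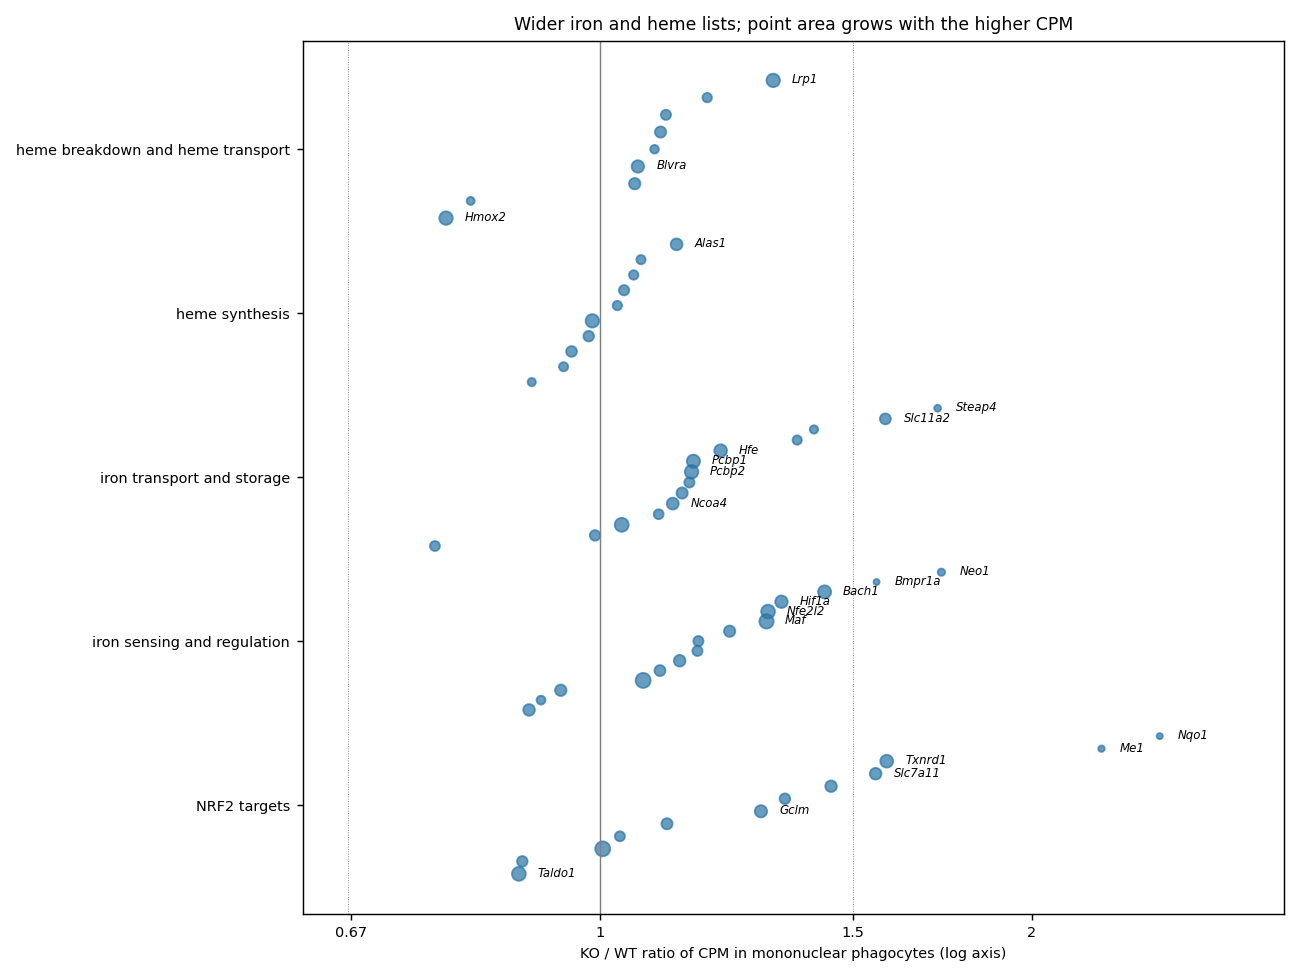
KO/WT ratio of CPM in mononuclear phagocytes (log axis) of the genes with 20 or more UMIs in 5 wider iron and heme lists; each point is a gene, its area grows with the higher CPM, and dotted lines mark 1.5-fold in each direction. No gene lies past 1.5-fold lower, and Slc11a2, Steap4, Neo1, Bmpr1a, Txnrd1, Slc7a11, Nqo1 and Me1 lie past 1.5-fold higher.

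The genes whose levels followed each member most closely over the 13 profiles are named by r alone. Ftl1 was followed by Ftl1-ps1 (0.998), a ferritin pseudogene whose reads may be shared with it, then Cd84 (0.99) and Creg1 (0.99), and Fth1 by Gm6977, Pdxk and Ftl1 (0.99, 0.98 and 0.97). Blvrb was followed by Wwp1, Reps2 and Selenop (0.98, 0.97 and 0.97), Slc48a1 by Atp6ap1, Lamp1 and Rragc (0.97, 0.95 and 0.94), of which Atp6ap1 and Lamp1 are lysosomal, and Slc11a1 by Slc35f6, Adap2os and Adap2 (0.96, 0.95 and 0.95). Hmox1 was followed by Mapkapk2, Il4ra and Pcyt1a (0.90, 0.89 and 0.89) and Cd163 by Ccl24, Snx2 and Ankfy1 (0.88, 0.87 and 0.86). The loosest were Slc40a1, with Slc31a1, the copper importer, Man1c1 and Slc9a9 (0.82, 0.81 and 0.80), and Tfrc, with Cdk6, Wbp11 and Cux1 (0.79, 0.79 and 0.77).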

How the data were processed

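The deposited files hold UMI counts per gene and barcode for 1 KO and 1 WT library, made by the authors with STAR 2.7.8a and STARsolo 2.7.9a on GRCm38 and handled with Seurat 4.0.1, per the submitters' processing notes; these do not name the annotation release. Barcodes with 5000 or more UMIs, at least 300 genes and at most 10% mitochondrial UMIs entered. Scrublet marked 0 doublets, and instead the barcodes with the top scores were taken out, 368 in KO and 360 in WT, at 0.8% per 1000 barcodes. Cells were clustered with scanpy 1.11.5, anndata 0.12.19 and leidenalg 0.10.2 (2000 variable genes, 30 components, 15 neighbours, resolution 1) without the 9 genes and the wider lists. Clusters were named from marker lists; subset markers counted as phagocyte markers, a choice made after seeing that Cd79b led a cluster with Cd79a and Ms4a1 near 0. Counts were summed per library and class and scaled to CPM. Intervals are exact Poisson for levels, exact binomial for ratios and Clopper-Pearson for shares, and cover counting error only. Medians of log2 ratios over lists used CPM + 5. The ratio step was tested on simulated Poisson counts without extra spread between cells, so the test checks the calculation only. Its limit on interval coverage was loosened after the first limit was not met. Python 3.11.15 with numpy 2.4.6, scipy 1.17.1, pandas 2.3.3 and matplotlib 3.10.9 was used. The 9 genes and all lists were chosen with earlier results of these data known. The named genes are the 9 members, up to 4 genes of 50 or more CPM per wider list with the interval furthest from 1, Hmox2, Blvra, the 3 genes most like each member, and globins. The number of animals is unknown, so ratios describe these 2 libraries.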

Additional observations from a re-analysis of the deposited data

Results flagged for a closer look

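For Slc40a1 and Cd163 the KO/WT ratio was past 1.5-fold higher in some phagocyte subsets and lower in others; with 1 library per group the difference between subsets was not tested. The Slc40a1 ratio was 1.98 in inflammatory cells, against 0.65 in Mrc1 and F13a1 cells, 0.56 in Mmp12 and F10 cells, 0.40 in Cx3cr1 and MHC class II cells, 0.38 in cycling cells and 0.24 in interferon-high cells. The inflammatory value rested on 490 UMIs in KO and 130 in WT, and the cycling value on 7 and 21. The Cd163 ratio was 3.89 in cycling cells, 2.89 in interferon-high cells, 2.03 in Gpnmb cells and 1.67 in inflammatory cells, against 0.63 in Cx3cr1 and MHC class II cells. The largest of these Cd163 ratios came from 38 UMIs in 5 KO cells and 11 UMIs in 6 WT cells.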

How the results depend on the processing

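No paired analysis was possible because each group is 1 library and the labels give no replicate numbers. Of 99 phagocyte ratios recomputed under other settings, 76 stayed within the counting interval of the value reported; of 287 subset ratios 218 did, and of 438 ratios in other classes 359 did. The number of members past 1.5-fold in phagocytes, 1 as reported, was 2 at a minimum of 8000 UMIs, 2 at a mitochondrial share of at most 5%, 2 with each cell named by its own marker score (Cd163 joined Tfrc each time) and 0 with the mean log2 ratio of CPM + 5 over subsets of equal weight, where Tfrc was 1.30 and Hmox1 0.995 (1.37 and 1.02 as a ratio of equally weighted mean CPM, without the added 5). The share of subset comparisons past 1.5-fold, 25.8% as reported, was 13.9% at Leiden resolution 0.5. The wider lists had 8 genes past 1.5-fold as reported and 14 without the filter on low counts. The genes measured per list were 9, 10, 14, 15 and 12 with the filter and 12, 10, 19, 16 and 12 without it. With the filter 12.8% of all genes compared in phagocytes were past 1.5-fold, and without it that share was not computed. At a minimum of 2000 UMIs the cells were clustered anew, so the subsets differ in their cells as well. The Cd163 ratio then turned to 1.01 in Cx3cr1 and MHC class II cells and to 0.374 in interferon-high cells. After subtraction of free RNA the Cd163 ratio was 0 in fibro-adipogenic and fibroblast cells. For these changes the cause was not tested. Slc40a1 in inflammatory cells ranged from 1.72 to 2.55 over the 6 other settings recomputed, and was 2.86 without the 5 highest cells of each library; in myogenic cells it ranged from 0.460 to 0.544, while in interferon-high cells it reached 0.673 at a minimum of 2000 UMIs. Leaving out the top cell of each library, the inflammatory subset or the Col1a1 and Rpgrip1 fibroblast cluster, and taking the mean over cells within subsets, were chosen after seeing the data. Tfrc in cycling cells was 0.958 with the mean over cells, against 1.29 as reported. At these levels most phagocytes yield no UMI of Tfrc, Slc40a1 or Cd163, so shares of positive cells follow depth.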

Other observations

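A small cluster of the dendritic class led by Ly6d, Klk1 and Siglech (28 KO and 31 WT cells) had the highest Tfrc level of all clusters listed for that class, 114 CPM in KO (24 UMIs) and 118 CPM in WT (28 UMIs), against 8.78 CPM in KO and 6.85 CPM in WT in the largest cluster of that class, led by Cd209a, whose phagocyte markers summed to more than its dendritic markers. The Hmox1 level of that largest cluster was 482 CPM in KO and 456 CPM in WT, and it was 143 and 156 CPM in KO and WT cells of the cluster led by Xcr1. The clusters were chosen after their values were seen.

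Globin UMIs, a sign of red cell RNA, were uneven between cells. Hbb-bs stood at 85.4 CPM in KO and 275 CPM in WT phagocytes, where 1 WT cell held 5791 of the 11805 WT UMIs and 1 KO cell 804 of the 3974 KO UMIs. In myogenic cells it stood at 403 CPM in KO and 26.3 CPM in WT, and 1 KO cell held 3430 of the 3556 KO UMIs. Hba-a1, Hba-a2 and Hbb-bt followed, at 42.7, 32.0 and 19.3 CPM in KO phagocytes and 108, 85.1 and 54.6 CPM in WT phagocytes.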
